A study of Mus musculus with 2 samples.

Results

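Subunit genes of the GABA-A receptor, 7 of the 32285 genes in the count tables, were measured in Cajal-Retzius (CR) cells of the mouse hippocampus. They were taken by symbol and are *Gabra2*, *Gabra3* and *Gabra5* (α subunits), *Gabrb1* and *Gabrb2* (β subunits), and *Gabrg1* and *Gabrg3* (γ subunits). CR cells from P14 mice were isolated by flow cytometry for tdTomato and profiled by single-cell RNA-sequencing in 2 libraries. The control library pooled 4 conditional heterozygous *ΔNp73-Cre; Cic flox/+; tdT* mice, 3 males and 1 female, and the knockout library pooled 4 littermates of the genotype *ΔNp73-Cre; Cic flox/flox; tdT*, 2 males and 2 females. Both groups therefore carry Cre under the *ΔNp73* promoter, a tdT reporter and at least 1 floxed allele of *Cic*, which encodes the transcriptional repressor Capicua, and the control cells keep 1 intact copy. The paper reports that in this knockout line Capicua was deleted from most but not all hippocampal CR cells. The knockout library may therefore hold cells that keep it. With 1 library per genotype no difference between genotypes could be tested, and all intervals below are 95% intervals that cover counting error only. Cells of one library are not replicates of its genotype.

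Cells were barcodes with at least 2000 unique molecular identifiers (UMIs, which count captured molecules once) and at least 5 UMIs of *Reln*, the secreted glycoprotein that defines CR cells. This left 1003 control cells of 1011 such barcodes and 390 knockout cells of 406, with medians of 6224 and 6664 UMIs per cell, and no barcode was shared between the libraries. All 10 listed CR cell markers were found in at least 25% of cells of both libraries, among them *Trp73* in 88.7% and 92.3%. *Reln* is one of these 10 and was present in every cell by selection, so it gives no separate evidence of identity. The GABAergic neuron list had 7 of 12 genes at 0 in control and 8 in knockout cells, with *Gad1* and *Gad2*, the enzymes that make GABA, at 1 UMI each per library. The granule neuron list was at 333 CPM in control and 316 CPM in knockout cells. *Dock10* gave 2090 of its 2199 UMIs in control and 809 of 874 in knockout, and was found in 70.0% and 68.5% of cells. The pyramidal neuron list was at 73.2 CPM (66.8–80.0) in control and 96.2 CPM (85.0–108) in knockout cells. *Cic* itself was at 58.9 and 51.3 CPM, a ratio of 0.871 (0.714–1.06), so its level did not separate the libraries. A 3′ count cannot show whether the floxed part of the transcript is missing.

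GABA-A receptors are chloride channels of 5 subunits opened by the inhibitory transmitter GABA. A typical synaptic receptor joins α, β and γ subunits. The α and β subunits form the GABA binding site, the β subunits are needed for assembly and surface delivery, and the γ subunits help to place receptors at synapses. CR cells are early-born neurons that receive mostly GABAergic input in the hippocampus. Levels are given as CPM, counts per 1000000 UMIs outside mitochondrial and ribosomal protein genes, and thinned shares as the percent of cells with a UMI after each cell was reduced to 2000 UMIs.

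The members lie on 4 chromosomes (GENCODE M21 on GRCm38). *Gabrg1* (chr5:70751047-70842617), *Gabra2* (chr5:70957597-71095849) and *Gabrb1* (chr5:71658113-72149037) lie in one cluster on chromosome 5, *Gabra5* (chr7:57407672-57510059) and *Gabrg3* (chr7:56716465-57387188) in another on chromosome 7, *Gabrb2* (chr11:42419757-42629028) is on chromosome 11 and *Gabra3* (chrX:72432681-72656848) on chromosome X. Capicua is known to bind the octamers TGAATGAA and TGAATGGA, and both were searched on both strands in RefSeq promoter windows (GRCm38.p6, 250 bases before to 50 after each start). Of the 11 windows of the 7 members, 1 held an octamer, and 2.47% of all 32851 windows held at least one (1.30% TGAATGAA, 1.21% TGAATGGA). It was that of *Gabrg3*, as the reverse complement TCCATTCA. A match is a description of the letters and not a binding site, and no match says only that these letters are absent from the window. The bases before the start are printed for *Gabrb1* and *Gabrb2*, the members furthest from equal levels between the genotypes among those with at least 100 UMIs, and for *Gabrg3* with 30 bases after the start and the octamer in capitals. They run 5′ to 3′ on the strand of the gene, at chr5:71699682-71699931 (plus strand, the downstream of 2 *Gabrb1* windows), chr11:42420190-42420439 (plus strand, the first of 3 *Gabrb2* windows) and chr7:57387186-57387465 (minus strand).
Gabrb1: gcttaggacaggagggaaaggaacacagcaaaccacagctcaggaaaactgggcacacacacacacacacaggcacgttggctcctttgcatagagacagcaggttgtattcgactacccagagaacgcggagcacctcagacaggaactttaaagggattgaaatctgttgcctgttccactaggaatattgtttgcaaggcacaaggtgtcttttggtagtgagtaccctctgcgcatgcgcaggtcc
Gabrb2: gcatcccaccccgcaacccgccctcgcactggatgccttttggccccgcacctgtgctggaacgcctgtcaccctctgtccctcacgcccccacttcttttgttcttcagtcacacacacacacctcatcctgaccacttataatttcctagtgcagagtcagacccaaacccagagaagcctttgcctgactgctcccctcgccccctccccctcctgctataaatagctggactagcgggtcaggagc
Gabrg3: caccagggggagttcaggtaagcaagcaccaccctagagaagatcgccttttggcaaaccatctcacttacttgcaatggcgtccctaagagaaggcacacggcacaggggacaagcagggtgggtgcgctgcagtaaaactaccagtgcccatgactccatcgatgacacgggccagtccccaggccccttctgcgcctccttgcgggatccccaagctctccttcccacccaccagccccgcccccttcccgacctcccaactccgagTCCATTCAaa
The octamer of *Gabrg3* begins at base 21 counted from 1 at the RefSeq start. The other *Gabrb1* window overlaps the first exon of *Gabra4*, which starts on the opposite strand.

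Among the 7 members, *Gabrg3*, *Gabrb2* and *Gabra2* were the 3 highest in both libraries. *Gabrg3*, the γ3 subunit, led at 329.9 CPM in control (316–344; 2178 UMIs) and 300.1 CPM in knockout cells (280–321; 830 UMIs). *Gabrb2*, the β2 subunit, followed at 157 CPM (147–166; 1034 UMIs) and 109 CPM (96.9–122; 301 UMIs). *Gabra2*, the α2 subunit, was at 90.9 CPM (83.8–98.5; 600 UMIs) and 106 CPM (93.8–118; 292 UMIs). These 3 genes stood apart from each other in control cells, while *Gabrb2* and *Gabra2* had overlapping intervals in knockout cells.

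*Gabrb1*, the β1 subunit, ranked next in both libraries, at 12.6 CPM in control (10.0–15.6; 83 UMIs) and 64.4 CPM in knockout cells (55.2–74.5; 178 UMIs). Its intervals overlapped with those of no other member in either library. *Gabrg1*, the γ1 subunit, was at 2.58 CPM (17 UMIs) and 4.34 CPM (12 UMIs). *Gabra5*, the α5 subunit known from extrasynaptic receptors of hippocampal neurons, was at 1.82 CPM (12 UMIs) and 1.45 CPM (4 UMIs), and *Gabra3*, the α3 subunit, at 0.757 CPM (5 UMIs) and 2.17 CPM (6 UMIs). Neighbours in this order had overlapping intervals among the last 3 in both libraries.

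Expressed per kb of the union of exons, the order of the first 4 was the same. The per-kb levels were 27.6 for *Gabrg3*, 24.6 for *Gabrb2*, 11.9 for *Gabra2* and 0.909 for *Gabrb1* in control cells, and 25.1, 17.1, 13.8 and 4.65 in knockout cells, in CPM per kb. In control cells *Gabrb1* then overlapped with *Gabra5* (0.611). A 3′ assay counts transcripts near their end, and whether intronic reads were counted is not stated, so neither scale is a measure of receptor number.

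**Figure D1:**
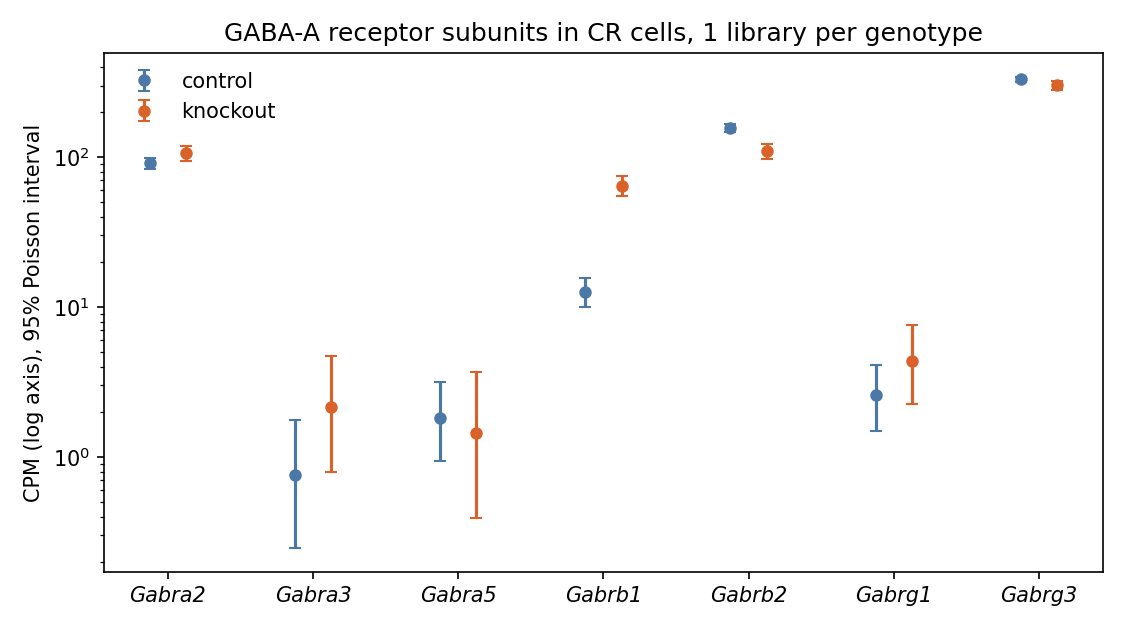
CPM of each of the 7 subunits (log axis) in the control library (blue) and the knockout library (orange), with 95% Poisson intervals. *Gabrb1* moves from 12.6 to 64.4 CPM between libraries, while *Gabrg3*, *Gabrb2* and *Gabra2* stay the 3 highest in both.

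Free RNA was low for the main members. Droplets of 20 to 100 UMIs, 29040 in control and 75813 in knockout, held *Gabrg3* at 24.3 and 27.3 CPM, *Gabrb2* at 19.3 and 12.2 CPM, *Gabra2* at 10.1 and 18.4 CPM and *Gabrb1* at 1.84 and 7.57 CPM. The cells' intervals lay above the droplet levels for all 4 genes. For *Gabra5* the droplet level, 1.38 CPM in control and 1.32 CPM in knockout, was within the interval of the cells, and so was that of *Gabrg1* in control, 1.84 CPM against 2.58 CPM in cells (1.5–4.12). *Gabra5*, and *Gabrg1* in control cells, were thus not enriched in cells over droplets beyond counting error. The droplets held medians of 89 UMIs in control and 44 in knockout, far below the cells. Subtracting free RNA at that amount per cell moved the knockout over control ratio from 0.796 to 0.794 for *Gabra5* and from 1.68 to 1.69 for *Gabrg1*. The unthinned shares of cells with a UMI in control and knockout were 56.8% and 59.0% for *Gabrg3*, 45.7% and 37.2% for *Gabrb2*, 34.9% and 40.3% for *Gabra2* and 5.38% and 18.5% for *Gabrb1*.

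Counts per cell differed between the members. *Gabrg3* was at 3 or more UMIs in 296 control and 109 knockout cells, and its highest cell had 22 and 20 UMIs. *Gabrb1* was at 3 or more UMIs in 5 control cells and 22 knockout cells, with at most 9 and 12 UMIs in a cell. At least 1 member was found in 83.3% of control cells (80.8–85.5) and 87.4% of knockout cells (83.7–90.6), and in 55.8% and 55.1% after thinning. A member of each of the 3 classes, α, β and γ, was seen together in 12.2% (10.2–14.3) and 9.74% (6.99–13.1) of cells. After thinning these shares were 0.997% and 1.03%, so co-detection in single cells moved with the depth. The combination *Gabra2*, *Gabrb2* and *Gabrg3* was found in 11.0% of control cells (9.10–13.1) and 5.64% of knockout cells (3.57–8.42), and the thinned shares of 0.997% and 1.03% overlapped.

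The first question was whether loss of *Cic* altered the subunits. *Gabrb1* was 5.12-fold higher in knockout cells (3.92–6.72), and its thinned share was 1.99% in control (1.22–3.06) and 8.21% in knockout cells (5.68–11.4). *Gabrb2*, the other β subunit, was lower, at a ratio of 0.695 (0.609–0.791) and thinned shares of 22.0% (19.5–24.7) and 17.4% (13.8–21.6). *Gabra2* had a ratio of 1.16 (1.01–1.34) and *Gabrg3* of 0.910 (0.839–0.986). Both intervals reached 1 without the cells that held markers of other types, at 1.14 (0.939–1.38) and 0.911 (0.821–1.01). Of the 9442 genes with at least 100 UMIs over both libraries, 2.73% were higher and 1.66% were lower by 1.5-fold in the knockout. Of the 4 members with at least 100 UMIs, 1 was higher and none lower by that fold, and 8 genes, *Gabrb1* included, had a ratio at least as high as *Gabrb1*. The median ratio of these 4 members was 1.04, and that of all tested genes was 1.00. *Gabrb2* did not pass the 1.5-fold limit, and 231 genes, *Gabrb2* included, had a ratio as low or lower.

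The 3 sparse members could not be placed. *Gabrg1* had a ratio of 1.68 (0.734–3.74), *Gabra3* of 2.86 (0.728–11.9) and *Gabra5* of 0.796 (0.187–2.63). All 3 intervals included 1, and they spanned a several-fold difference upward for *Gabra3* and downward for *Gabra5*.

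Over all cells the sum of the 7 members was nearly equal, 595 CPM in control (577–614) and 587 CPM in knockout cells (559–616), a ratio of 0.986 (0.930–1.04). It was not near equal in every class of cells, as given below. The 2 β members together were at 169 CPM (159–179) and 173 CPM (158–189). Within that sum the β1 share differed: *Gabrb1* made up 7.43% of the UMIs of *Gabrb1* and *Gabrb2* in control (5.96–9.13) and 37.2% in knockout cells (32.8–41.7). The α members summed to 93.5 and 109 CPM and the γ members to 332 and 304 CPM.

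Cells with *Gabrb1* but no *Gabrb2* UMI were 2.49% of control (1.62–3.66) and 10.3% of knockout cells (7.43–13.7). Cells with both were 2.89% (1.94–4.13) and 8.21% (5.68–11.4), and cells with *Gabrb2* alone 42.8% (39.7–45.9) and 29.0% (24.5–33.8). After thinning, cells with *Gabrb1* but no *Gabrb2* were 1.30% (0.692–2.21) and 6.92% (4.61–9.91). Cells with both were then 0.698% (0.281–1.43) and 1.28% (0.418–2.97), and cells with *Gabrb2* alone 21.3% (18.8–24.0) and 16.2% (12.6–20.2). The thinned intervals of cells with both and of cells with *Gabrb2* alone overlapped between the libraries. Within the knockout library, *Gabrb2* was at 104 CPM in cells with a *Gabrb1* UMI and 110.1 CPM in cells without one, a ratio of 0.944 (0.696–1.26).

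The genotype difference of *Gabrb1* was present in each class of CR cells. Classes were set by at least 1 UMI of *Cck*, a neuropeptide gene, of *Grik1*, a kainate receptor subunit gene, or of *Chst8* or *Alkal2*, a sulfotransferase gene and a gene for a ligand of the receptor ALK, and a cell may belong to more than 1 class. The knockout over control ratio was 3.05 (1.85–5.02) in *Cck*-positive cells, 3.50 (1.5–8.43) in *Grik1*-positive cells and 2.51 (1.40–4.53) in *Chst8*- or *Alkal2*-positive cells. In the 387 control and 173 knockout cells negative for all of these genes it was 6.93 (4.65–10.6), at 13.9 and 96.6 CPM. The interval of the negative cells lay above the point values of all 3 positive classes and overlapped with the intervals of the *Cck* and *Grik1* classes, while that of the *Chst8* or *Alkal2* class lay below it. *Gabrb2* was lowest against control in the negative cells, 0.617 (0.5–0.758), and in the *Chst8* or *Alkal2* class, 0.667 (0.524–0.842). It was at 0.855 (0.663–1.09) in *Cck*-positive and 0.856 (0.609–1.19) in *Grik1*-positive cells, and both of these intervals included 1. *Gabra2* differed in direction by class, at 1.49 (1.20–1.84) in negative cells and 0.691 (0.478–0.981) in *Chst8*- or *Alkal2*-positive cells. *Gabrg3* was between 0.783 and 0.972 in all of them. The sum of the 7 members was lower in the knockout in *Cck*-positive cells, 0.876 (0.772–0.992), and in *Chst8*- or *Alkal2*-positive cells, 0.820 (0.735–0.915). It was 1.05 (0.907–1.22) in *Grik1*-positive cells and 1.06 (0.971–1.16) in the negative cells, and both of these intervals included 1.

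**Figure D2:**
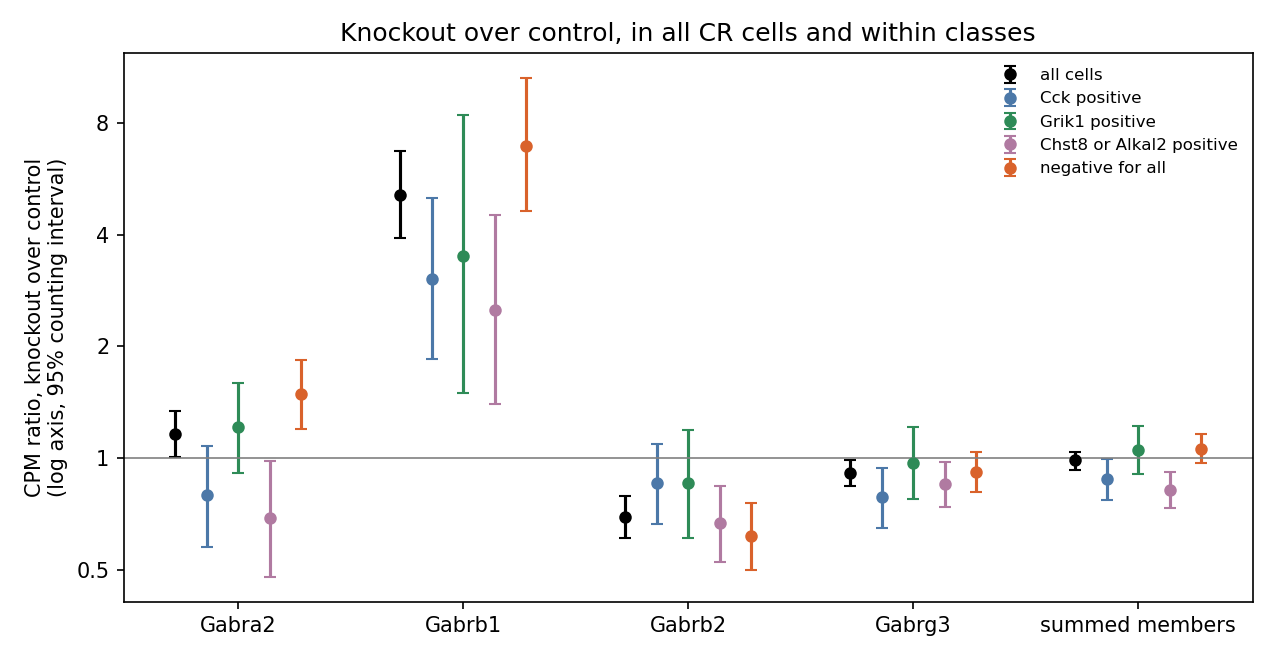
CPM ratio of knockout over control (log axis, 95% counting intervals; grey line at 1) for the 4 members with at least 100 UMIs and for the sum of the 7 members. Colours give all CR cells, the 3 positive classes and the cells negative for all; every *Gabrb1* value lies above 2.5, and the summed members lie between 0.820 and 1.06.

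Sex composition differed between the pools, so the comparison was repeated within cells with *Xist* and no Y-linked UMI (227 control, 176 knockout) and within cells with a Y-linked UMI and no *Xist* (702 and 194). The *Gabrb1* ratio was 6.24 (3.75–11.0) in the former and 4.19 (2.96–5.94) in the latter, and that of *Gabrb2* was 0.603 (0.479–0.758) and 0.752 (0.632–0.890). For *Gabra2* it was 1.37 (1.07–1.75) and 0.975 (0.796–1.19). The male interval included both 1 and the ratio of 1.16 in all cells, and it overlapped with the female interval. Whether the *Gabra2* difference depends on sex is therefore not resolved, and the control pool held 1 female.

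Glial markers were set beside *Gabrb1*. In control cells the 7 astrocyte markers summed to 314 CPM in the 54 cells with a *Gabrb1* UMI and to 89.5 CPM in the other 949. In knockout cells the 2 values were 98.5 CPM (72 cells) and 86.5 CPM (318 cells), and 3 of the 7 markers were at 0 among all knockout cells. Astrocyte markers therefore went with *Gabrb1* in the control and hardly in the knockout library. In the 5 control cells with 3 or more *Gabrb1* UMIs the list was at 127 CPM, from 4 UMIs. Over all cells the list was at 103 CPM in control and 88.9 CPM in knockout. Most of it was *Slc1a2*, with 612 of 680 UMIs in control and 230 of 246 in knockout. The 5 oligodendrocyte precursor markers went with *Gabrb1* in the knockout library instead, at 102 CPM in cells with and 72.5 CPM in cells without a *Gabrb1* UMI, against 57.8 and 60.9 CPM in control. Over all cells they were at 60.7 CPM (54.9–67.0) in control and 78.5 CPM (68.4–89.6) in knockout. Of their 217 UMIs in knockout cells 215 were of *Cspg4*, while *Olig2* and *Sox10* were at 0 and *Olig1* and *Pdgfra* at 1 UMI each. The part of either list in the *Gabrb1* difference was not tested. An alternative removed cells with 3 or more UMIs of the GABAergic list. It also removed those with 3 or more UMIs summed over the astrocyte, oligodendrocyte, oligodendrocyte precursor, microglia, and endothelial and mural lists. The granule and pyramidal neuron lists were not used. This left 665 control and 247 knockout cells and a *Gabrb1* ratio of 3.51 (2.46–5.05). The removed cells may include many CR cells, since *Slc1a2*, *Cspg4* and *Rgs5* of these lists were each found in over 25% of the CR cells themselves. Outside the cells as defined here, the 16 knockout barcodes with under 5 *Reln* UMIs held 14 *Gabrb1* UMIs, or 295 CPM (162–496). All 14 came from 2 of these barcodes. The 16 barcodes held the astrocyte list at 2533 CPM, the CR cell list at 1667 CPM and the endothelial and mural list at 1161 CPM.

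*Gabrb1* was not evenly spread over the knockout cells. *Etv4* and *Etv5* encode ETS transcription factors and are known targets that Capicua represses, and a UMI of either was found in 87 control cells (8.67%) and 162 knockout cells (41.5%). This split was chosen after the data had been examined. In knockout cells with an *Etv4* or *Etv5* UMI, *Gabrb1* was at 108 CPM (90.7–128), and in the 228 without it was at 29.3 CPM (21.3–39.2), a ratio of 3.70 (2.62–5.31). Thinned shares were 14.2% (9.22–20.5) and 3.95% (1.82–7.36). In control cells the same split gave 16.5 and 12.1 CPM, a ratio of 1.36 (0.649–2.58). Control thinned shares were 4.60% (1.27–11.4) and 1.75% (1.00–2.82). Among 87 and 87 control cells matched on depth the ratio was 1.82 (0.616–5.99). It was 1.84 (0.490–4.90) when the split was made on thinned counts. These control ratio intervals included both 1 and 2.45, the knockout ratio for the split on thinned counts. Whether the split differs between the libraries is therefore not resolved.

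*Gabrb2* went the other way in the same knockout cells, at 77.3 CPM (62.6–94.5) with and 134 CPM (116–154) without an *Etv4* or *Etv5* UMI, a ratio of 0.577 (0.448–0.740). In control cells its ratio was 1.22 (1.01–1.48), at 187 and 153 CPM, and 1.41 (1.06–1.87) among 87 and 87 cells matched on depth. When the split was made on thinned counts, which left 29 positive cells, it was 0.790 (0.493–1.20). The direction of *Gabrb2* in control cells thus depended on how the split was made. *Gabrb1* made up 58.3% of the UMIs of both β genes in the *Etv*-positive knockout cells (51.6–64.8), 17.9% in the *Etv*-negative ones (13.4–23.2), and 8.09% and 7.34% in the corresponding control cells. Of these 4 groups, the *Etv*-positive knockout cells alone held more *Gabrb1* than *Gabrb2* UMIs.

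The other main subunits did not follow this split in the knockout. *Gabrg3* had a ratio of 1.08 (0.938–1.24) and *Gabra2* of 0.991 (0.780–1.26), and the 7 members summed to 614 CPM with and 565 CPM without an *Etv4* or *Etv5* UMI, a ratio of 1.09 (0.984–1.20). *Gabrg1* was at 9 and 3 UMIs, a ratio of 3.75 (0.937–21.6). In control cells *Gabrg3* was 1.30-fold (1.14–1.47) with an *Etv4* or *Etv5* UMI. It was 1.13-fold (0.948–1.35) among cells matched on depth and 1.28-fold (1.00–1.61) when the split was made on thinned counts.

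Against all control cells, *Gabrb1* stood at 8.61-fold (6.50–11.5) in *Etv*-positive and 2.33-fold (1.58–3.39) in *Etv*-negative knockout cells, and *Gabrb2* at 0.494 (0.396–0.610) and 0.855 (0.733–0.994). These comparisons share the control cells. Cells with an *Etv4* or *Etv5* UMI were deeper, with medians of 7266 against 6210 UMIs in the knockout. Among 157 and 157 knockout cells matched on depth the ratios were 3.32 (2.30–4.91) for *Gabrb1* and 0.537 (0.409–0.701) for *Gabrb2*. When the split was made on the thinned counts they were 2.45 (1.78–3.34) and 0.585 (0.405–0.825). The astrocyte markers were at 76.5 CPM in the *Etv*-positive and 98.9 CPM in the *Etv*-negative knockout cells, the opposite direction to *Gabrb1*. The oligodendrocyte precursor markers were at 89.5 and 69.6 CPM, the same direction as *Gabrb1*, and their part in it was not tested.

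**Figure D3:**
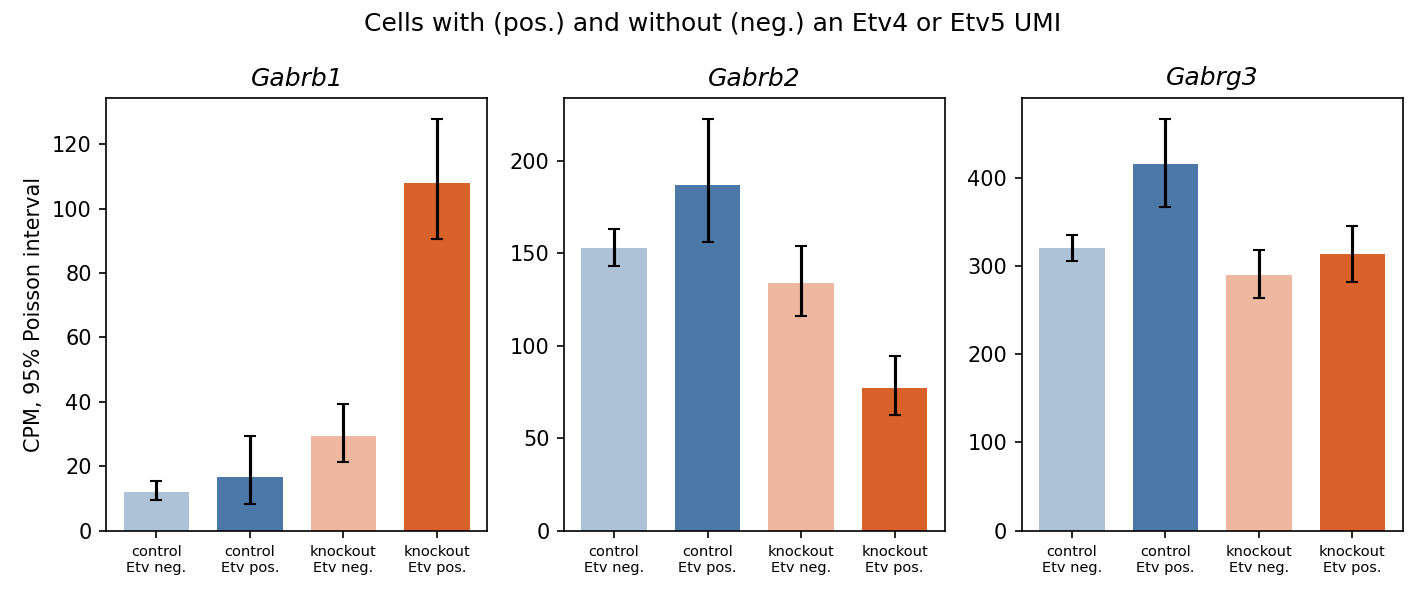
CPM of *Gabrb1*, *Gabrb2* and *Gabrg3* in cells without (pale) and with (dark) an *Etv4* or *Etv5* UMI, in the control (blue) and knockout (orange) libraries, with 95% Poisson intervals and axes from 0. In the knockout, *Gabrb1* goes from 29.3 to 108 CPM and *Gabrb2* from 134 to 77.3 CPM, while *Gabrg3* stays at 290.1 and 313 CPM.

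The neighbours of *Gabrb1* were examined next, since 3 members share its cluster. *Gabra4*, which starts 0.2 kb away on the opposite strand and encodes the α4 subunit, was at 10 UMIs in control and 11 in knockout cells. Its ratio was 2.63 (1.01–6.90), and 5 of the control UMIs came from 1 cell. *Gabra4* was found in 0.598% of control cells (0.220–1.30) and 2.31% of knockout cells (1.06–4.34). *Gabra2* and *Gabrg1*, 562.3 and 815.5 kb away, had the ratios of 1.16 and 1.68 given above. Beyond the other end of the gene, *Commd8* was at 0.740 (0.526–1.03) and *Nfxl1* at 1.04 (0.713–1.5). No neighbour within 1000 kb and with at least 20 UMIs had an interval reaching up to that of *Gabrb1* except *Gabra4*, whose interval was wide. The stretch shared by *Gabra4* and *Gabrb1* lies at the start of both genes, away from their 3′ ends. Whether counting used the strand is not given in the sources used here, so reads there may or may not have been told apart. The antisense gene *Gm38562* inside *Gabrb1* was at 0 and 2 UMIs.

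**Figure D4:**
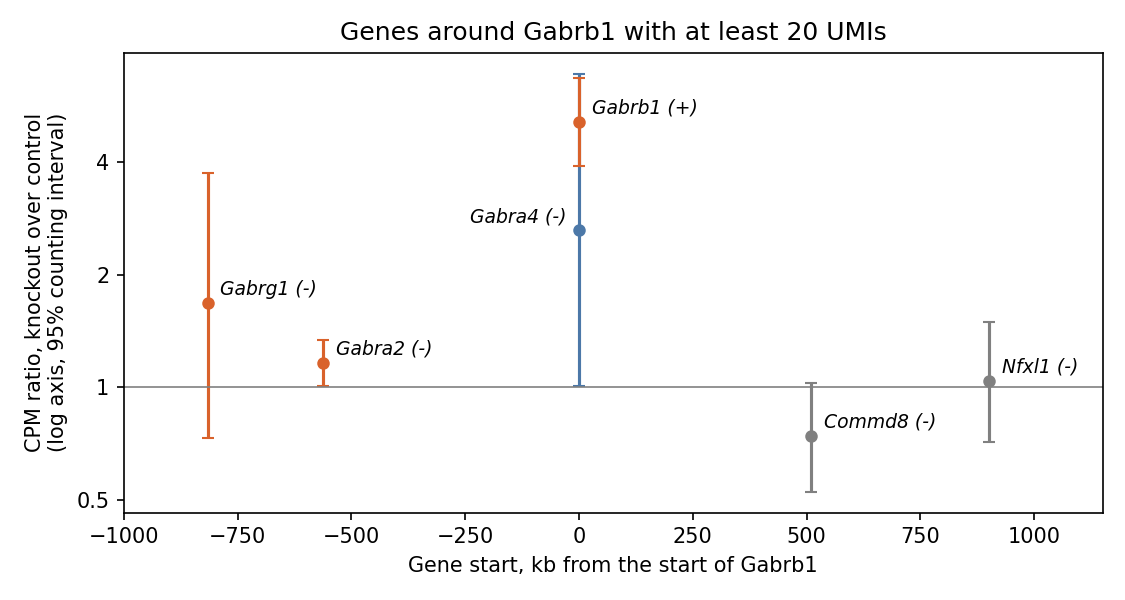
CPM ratio of knockout over control (log axis, 95% counting intervals) of genes with at least 20 UMIs against the distance of their start from that of *Gabrb1*, in kb; GABA-A subunit genes are orange (*Gabra4* blue), other genes grey, and strands are in brackets. *Gabrb1* is at 5.12 and *Gabra2*, *Commd8* and *Nfxl1* lie between 0.740 and 1.16. *Gabra4* is at 2.63 (1.01–6.90) and *Gabrg1* at 1.68 (0.734–3.74), both from few UMIs.

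The second question was how the subunits differ between the classes of CR cells. The paper clustered these same cells and named *Cck*, *Grik1* and *Gabrg3* each as a marker of a different cluster. Differences of *Gabrg3* between the classes therefore restate that clustering in part and are no separate support for it. *Cck* was found in 324 control cells (32.3%) and 110 knockout cells (28.2%). *Gabrg3* was lower in these cells in both libraries, at 243 against 376 CPM in control, a ratio of 0.645 (0.584–0.710), and at 189.8 against 345 CPM in knockout, 0.551 (0.459–0.658). Its thinned shares were 25.9% and 38.4% in control and 17.3% and 33.9% in knockout. *Gabrb2* was lower in control, 0.721 (0.627–0.827), and near equal in knockout, 0.975 (0.749–1.26). *Gabra2* was 0.887 (0.743–1.06) in control and 0.549 (0.400–0.742) in knockout. The 7 members summed to 472 against 660.5 CPM in control, 0.715 (0.666–0.767), and 414 against 657 CPM in knockout, 0.630 (0.556–0.711).

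By 1.5-fold, 2.40% of genes were higher and 2.66% lower in control *Cck*-positive cells, and 3.66% and 4.59% in knockout ones. Of the 3 members with at least 100 UMIs in control cells, 1 was lower (*Gabrg3*), and of the 4 in knockout cells 3 were lower (*Gabra2*, *Gabrb1* and *Gabrg3*), with none higher in either. The median ratio of these members was 0.721 in control and 0.589 in knockout, beside 0.995 and 0.997 over all tested genes. The lower *Gabrb1* level in knockout *Cck*-positive cells, 0.628 (0.423–0.911), turned to 1.17 (0.695–1.92) without the cells that held markers of other types.

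*Grik1* was found in 194 control cells (19.3%) and 70 knockout cells (17.9%). *Gabra2* was higher in them in both libraries, at 120.5 against 83.1 CPM in control, 1.45-fold (1.21–1.74), and at 145 against 96.0 CPM in knockout, 1.52-fold (1.15–1.97). *Gabrg3* was lower, at 221 against 359 CPM, 0.615 (0.543–0.695), and 214 against 321 CPM, 0.669 (0.544–0.815). *Gabrb2* was 0.643 (0.537–0.766) in control and 0.828 (0.599–1.13) in knockout, and *Gabrb1* was 0.579 (0.277–1.10) and 0.383 (0.209–0.650). *Grik1*-positive cells thus had the highest *Gabra2* level of the 3 positive classes in both libraries. In the cells negative for all class genes *Gabra2* was at 91.3 CPM (79.5–104) in control and 136 CPM (115–159) in knockout. Of the 17 *Gabrg1* UMIs of the control library, 8 were in *Grik1*-positive cells, a ratio of 3.37 (1.13–9.84), and 3.40 with free RNA subtracted. The knockout ratio was 0.831 (0.0886–3.90). Without the *Gabrg1*-richest cell the control ratio was 3.28 (0.911–11.4).

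In this comparison 2.24% of genes were higher and 4.58% lower by 1.5-fold in control, and 2.60% and 5.32% in knockout. Of the members with at least 100 UMIs, 2 of 3 were lower in control (*Gabrb2* and *Gabrg3*), and in knockout 1 of 4 was higher (*Gabra2*) and 1 lower (*Gabrb1*). Their median ratio was 0.643 and 0.748, beside 0.990 and 0.988 over all tested genes. The summed members were at 0.738 (0.677–0.803) and 0.800 (0.698–0.914). With *Grik1* positivity set at 2 UMIs the knockout values were 0.933 (0.781–1.11) for the sum and 0.587 (0.287–1.08) for *Gabrb1*, and among cells matched on depth *Gabra2* was at 1.39 (0.971–2.01).

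*Chst8* or *Alkal2* was found in 232 control cells (23.1%) and 91 knockout cells (23.3%). *Gabrg3* was higher in them, at 435 against 295 CPM in control, 1.47-fold (1.34–1.61), and at 370.3 against 274 CPM in knockout, 1.35-fold (1.17–1.57). Thinned shares were 43.5% and 31.6% in control and 35.2% and 27.4% in knockout. *Gabrb2* was 1.28-fold (1.12–1.47) in control and 1.22-fold (0.946–1.56) in knockout. *Gabra2* was 0.874 (0.716–1.06) in control and 0.457 (0.322–0.633) in knockout, at 56.7 against 124 CPM, its lowest level in any class. The sum of the members was 1.31-fold (1.22–1.40) in control and 1.02-fold (0.911–1.14) in knockout.

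Of all genes, 2.06% were higher and 4.34% lower by 1.5-fold in control *Chst8*- or *Alkal2*-positive cells, and 3.35% and 4.71% in knockout ones. No member with at least 100 UMIs passed this limit in control, and 2 of 4 were lower in knockout (*Gabra2* and *Gabrb1*). Without cells with markers of other types the *Gabra2* ratio was 0.690 (0.438–1.05), and with positivity called after thinning that of *Gabrb1* was 0.721 (0.410–1.19). The median member ratio was 1.28 and 0.857, beside 0.974 and 0.993 over all tested genes. Positive cells were deeper than negative cells in each class, most in knockout *Chst8*- or *Alkal2*-positive cells, with medians of 7869 and 6361 UMIs.

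**Figure D5:**
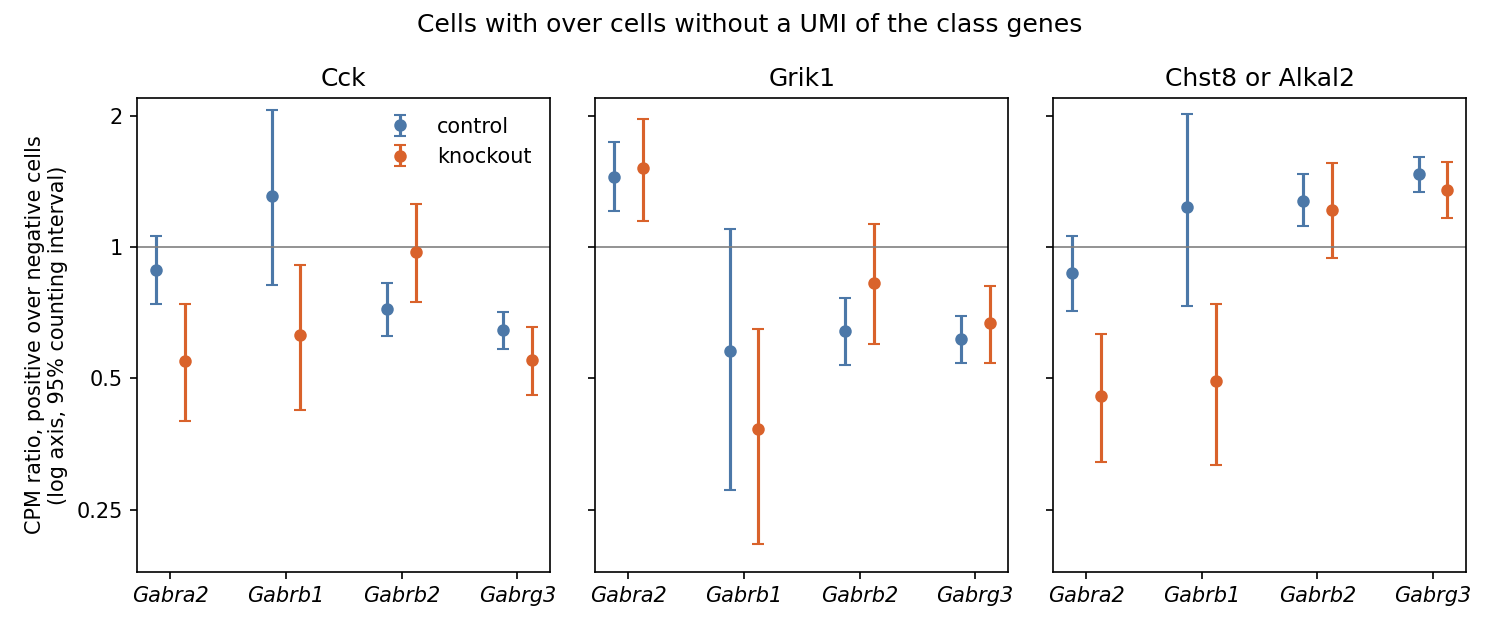
CPM ratio of positive over negative cells (log axis, 95% counting intervals; grey line at 1) for 4 members, by class, in control (blue) and knockout (orange). *Gabrg3* lies below 1 for *Cck* and *Grik1* and above 1 for *Chst8* or *Alkal2* in both libraries, and *Gabrb1* lies on opposite sides of 1 in the 2 libraries for *Cck* and for *Chst8* or *Alkal2*.

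Cells positive for 1 class alone were compared next. *Gabrg3* was at 542 CPM (496–591) in control cells with only *Chst8* or *Alkal2* (145 cells), 366 CPM (342–391) in cells negative for all (387), 250.3 CPM (225–278) in cells with only *Cck* (215) and 232 CPM (201–266) in cells with only *Grik1* (130). In knockout cells the order of the first 2 groups was the same, at 472 CPM (408–543; 51 cells) and 336 CPM (303–371; 173 cells), and the *Grik1* and *Cck* groups were at 246 CPM (193–309; 43 cells) and 179.7 CPM (144–221; 72 cells). The *Cck* and *Grik1* groups overlapped in both libraries. In cells with only *Grik1*, *Gabra2* was at 115 CPM (93.8–140.3; control) and 183 CPM (138–238; knockout). These intervals overlapped with those of the cells negative for all, 91.3 CPM (79.5–104; control) and 136 CPM (115–159; knockout). *Gabra2* was at 38.9 CPM (22.2–63.2) in the knockout cells with only *Chst8* or *Alkal2*. *Gabrb2* was at 53.1 CPM (30.4–86.3) in the knockout cells with only *Grik1*, below its level of 107 CPM (89.0–128) in knockout cells negative for all, and at 113 CPM (91.8–138) and 174 CPM (157–191) in the same control groups. *Gabrb1* had 2 UMIs, 2.31 CPM (0.279–8.33), in the control cells with only *Grik1*.

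Other genes of GABA signalling were compared, 36 genes from the lists. Of the 12 other GABA-A subunit genes listed, 8 are reported here, and none of these 8 reached 100 UMIs. *Gabrp* was at 0 in both libraries, which at 3 counts of the total allows a UMI in up to 0.299% of control and 0.769% of knockout cells, *Gabrr1* and *Gabrr3*, of the ρ family, had 1 UMI each, and *Gabra6*, *Gabre*, *Gabrq* and *Gabrr2* had 3 to 8 UMIs over both libraries. Over all lists 19 genes had at least 100 UMIs, and between genotypes none was higher and 1 was lower by 1.5-fold. Of all 9442 tested genes 2.73% were higher and 1.66% lower, and 1 gene of 19 is too few to set apart from these shares. The lower gene was *Plcl1*, which encodes a phospholipase C-like protein known to bind β subunits and GABARAP. It was at 439 CPM in control and 269 CPM in knockout cells, a ratio of 0.614 (0.566–0.666).

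The metabotropic receptor genes *Gabbr1* and *Gabbr2* had ratios of 1.24 (1.12–1.36) and 1.19 (1.04–1.35). *Gphn*, the gephyrin scaffold of inhibitory synapses, was at 2243 and 2156 CPM, a ratio of 0.961 (0.933–0.991), and was found in all but a few cells of each library. *Slc12a5*, the chloride exporter that makes GABA inhibitory in mature neurons, was scarce at 33 and 28 UMIs, a ratio of 2.03 (1.18–3.46).

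The genes most like each member were sought over 11 groups of at least 20 cells (6 control and 5 knockout, by class combination), among 3771 genes with at least 500 UMIs, by Spearman's rho of CPM. They were *Dock11* (0.94) and *Igsf3* (0.91) for *Gabra2*, *Cyhr1* (0.90) and *Emc10* (0.89) for *Gabrb1*, *Traf3ip2* (0.92) and *Pcdh11x* (0.92) for *Gabrb2*, and *Adcy2* (0.94) and *Snhg11* (0.93) for *Gabrg3*. These values describe 11 points that share 2 libraries and differ in depth. Picking the highest of 3771 genes over so few points favours high values of rho, and shared regulation was not tested. *Gabra3*, *Gabra5* and *Gabrg1* were at 0 in 7, 4 and 2 of the groups, and no gene is named for them.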

How the data were processed

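Single-cell RNA-sequencing (10x Genomics 3′ chemistry) of sorted tdT+ hippocampal cells gave 2 libraries, 1 per genotype. The authors deposited raw UMI counts for every gene and barcode, unfiltered, from Cell Ranger. The file header names version 4, the submitters' processing notes name version 8.0.1 with mm39, and the methods name another version with mm10. Whether introns or strand were used in counting is not given in the sources used here. Gene positions came from GENCODE M21 on GRCm38, in which 32235 of 32285 identifiers matched. The matrices held 16336796 control and 6777071 knockout UMIs, with 455605 and 252107 barcodes, and cells held 2012 to 31769 and 2769 to 33453 UMIs.

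Cells were barcodes with at least 2000 UMIs and 5 *Reln* UMIs. No doublet caller was run, and an alternative removed cells beyond 3 median absolute deviations in UMIs, genes or mitochondrial share. CPM used as denominator all UMIs outside mitochondrial and ribosomal protein genes (6601724 and 2765943). Levels have exact Poisson intervals, ratios exact conditional binomial intervals and shares Clopper-Pearson intervals, all at 95%. Thinning drew 2000 UMIs per cell without replacement, and every cell was kept. No test was made, because each genotype is 1 library. The background is the percent of genes with at least 100 UMIs past 1.5-fold in the same comparison. Scripts were tested on simulated data. Python 3.11.15, numpy 2.4.6, scipy 1.17.1, R 4.3.3 and edgeR 4.0.16 (TMM factors only) were used.

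The genes named are all members, the other listed GABA-A subunits, genes of the other lists past 1.5-fold between genotypes, the class genes, and the 2 genes most like each member. *Gabbr1*, *Gabbr2*, *Gphn*, *Slc12a5* and the neighbours of *Gabrb1* were named after their values were seen. Members and lists were chosen with earlier results of these data known. Of 12 other listed GABA-A subunits, 8 are reported here. Alternatives changed the cell limits, positivity, scaling, depth and single cells, and the *Etv4* or *Etv5* split and the sex split were added after seeing the data.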

Additional observations from a re-analysis of the deposited data

Results flagged for a closer look

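*Gabrb1* was higher in *Cck*-positive than in *Cck*-negative control cells, at a ratio of 1.31 (0.819–2.07), and lower in knockout cells, at 0.628 (0.423–0.911). In *Chst8*- or *Alkal2*-positive cells the ratio was 1.24 (0.735–2.02) in control and 0.494 (0.317–0.743) in knockout cells. In both classes the libraries went in opposite directions, both control intervals included 1, and the difference between the libraries was not tested. For *Cck* the direction in the knockout turned to 1.17 without cells with markers of other types. The knockout over control ratio of *Gabra2* also went in opposite directions, at 1.49 in cells negative for all class genes and 0.691 in *Chst8*- or *Alkal2*-positive cells, and this difference was not tested.

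UMIs of the 7 members were also found in barcodes outside the cells, some of which entered only the alternatives with lower limits on UMIs or *Reln*. Barcodes of at least 500 and under 2000 UMIs held 21 in the control library (191 barcodes, 142 CPM) and 17 in the knockout library (51 barcodes, 423 CPM). The 16 knockout barcodes with at least 2000 UMIs and under 5 *Reln* UMIs held 15, of which 14 were *Gabrb1*, all from 2 barcodes.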

How the results depend on the processing

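Of 843 values under an alternative, 744 were of single members and 99 of the summed members. Of the 744, 698 stayed within the 95% interval of the reported value, 44 left it and 2 changed direction where that interval excluded 1. Of the 99, 91 stayed within and 8 left it. The intervals of *Gabra3*, *Gabra5* and *Gabrg1* were wide, such as 0.728–11.9 for *Gabra3* in knockout over control. Staying within such an interval says little about stability. A further 46 values crossed 1 where the interval of the reported value included 1, 35 of them of *Gabra3*, *Gabra5* or *Gabrg1*, 6 of *Gabrb2* and 5 of the sum. Changes of cell limits, scaling and single cells put *Gabrb1* between 3.51 and 6.05 in knockout over control (3.88 as a mean over cells), *Gabrb2* between 0.667 and 0.796 and *Gabrg3* between 0.884 and 0.928. The 2 changes of direction away from an interval that excluded 1 were of *Gabrb1* and *Gabra2*. *Gabrb1* in knockout *Cck*-positive over negative cells was 0.628 in all cells and 1.17 (0.695–1.92) without cells with markers of other types. *Gabra2* in knockout over control was 1.16 in all cells and 0.975 (0.796–1.19) in male cells. The summed members in knockout over control were 0.986 in all cells and 1.05 in female cells. With positivity at 2 UMIs the summed ratio was 0.535 for *Cck* in knockout (0.630 at 1 UMI), 0.623 for *Grik1* in control (0.738) and 0.933 for *Grik1* in knockout (0.800). With positivity after thinning it was 0.717 for *Cck* in knockout and 1.14 for *Chst8* or *Alkal2* in knockout (1.02). Depth matching gave 1.44 for *Chst8* or *Alkal2* in control (1.31), and leaving out cells with markers of other types 0.671 for *Grik1* in control. The causes were not tested. With genes of at least 50 UMIs the background rose to 4.38% higher and 2.97% lower between genotypes. No paired analysis was possible because each genotype is 1 library with no replicate number, and for the same reason no replicate could be left out. Depth limits *Gabra3*, *Gabra5* and *Gabrg1*, at 11 to 29 UMIs in all.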
